A study of Homo sapiens with 6 samples.

Results

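The anaphase-promoting complex or cyclosome (APC/C) and its direct regulators were followed as 10 genes, chosen by name as the rows of the deposited count tables with the symbols CDC20, FZR1, UBE2C, UBE2S, FBXO5, PTTG1, CDC27, CDC23, CDC16 and ANAPC1. All 10 were found among the 41471 gene symbols of the shRNA experiment and the 34157 of the rebastinib experiment, and all 10 passed the filter of an average of at least 1 CPM (counts scaled to a common library total) in both. MDA-MB-231, a human triple-negative breast cancer cell line, was used throughout. The shRNA experiment compared cells carrying a stable lentiviral scramble shRNA with cells carrying CDK16-sh1 or CDK16-sh2, 2 hairpins against the kinase CDK16. The other experiment compared cells given the vehicle DMSO for 48 h with cells given rebastinib (Reb), a kinase inhibitor proposed to inhibit CDK16, at 1 μM or 5 μM for 48 h. Each of the 6 conditions was 1 RNA sequencing library of 1 cell line, so a difference between conditions has no replicate check, and Reb is known to act on kinases other than CDK16.

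The APC/C is a multi-subunit ubiquitin ligase that marks mitotic proteins for destruction by the proteasome. CDC20 activates it at the change from metaphase to anaphase, once the spindle checkpoint is satisfied, and FZR1 (CDH1) activates it from late mitosis into the next G1 phase. UBE2C places the first ubiquitins on a substrate and UBE2S extends the chain, FBXO5 (EMI1) holds the complex inactive during S and G2 phases, and destruction of the substrate PTTG1 (securin) frees separase, the protease that cuts cohesin. Most of these proteins are themselves controlled by degradation, which RNA levels do not report.

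The libraries held between 25838443 and 50303269 counts. Mitochondrial transcripts took between 7.19% and 11.3% of the counts in 4 libraries, against 16.2% with CDK16-sh2 and 16.4% with 5 μM Reb. Vimentin (VIM) and the surface proteins CD44 and AXL, expected in this line, were between 31.8 and 833 RPKM (reads scaled to transcript length and library total), and ESR1, PGR and CDH1, expected to be low, were at most 0.174 RPKM. EPCAM, also expected to be low, was between 1.55 and 4.30 RPKM. CDK16 stood at 19.1 RPKM with the scramble shRNA, 6.52 with CDK16-sh1 and 4.72 with CDK16-sh2. The proliferation marker MKI67 stood at 102, 59.7 and 50.8 RPKM in the same order, and at 160, 108 and 12.2 RPKM with DMSO, 1 μM and 5 μM Reb. In bulk RNA, fewer cells in mitosis and less RNA of a gene in each cell cannot be told apart.

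Fold changes were computed on the log2 scale after trimmed mean of M-values (TMM) scaling, each treated library against its own control, and the 95% intervals given after them cover counting error only. None of the 10 genes differed by 2-fold or more with CDK16-sh1 (6.86% of all tested genes were at least 2-fold lower and 4.33% at least 2-fold higher), with CDK16-sh2 (7.62% and 2.2%) or with 1 μM Reb (1.92% and 1.28%). With 5 μM Reb, 2 of the 10 were at least 2-fold lower, CDC20 and UBE2S, where 27.2% of all genes were, and 1 was at least 2-fold higher, CDC23, where 23.6% of all genes were. These shares for the 10 genes lay near those of all genes or below them.

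The stretches before the start sites are shown for genes that stood at different places with 5 μM Reb: CDC20 and UBE2S, which were lowest, PTTG1, which lay nearer DMSO, and CDC23, which was highest. That order is the one with TMM scaling. With trends on GC content and length removed, FBXO5 (-1.51) and CDC27 (-1.21) were lowest, below CDC20 and UBE2S, both at -1.04. They are RefSeq sequences of GRCh38.p14, read on the strand of the gene, beginning 250 bases before the RefSeq start and stopping before that start or before the deposited gene row, whichever comes first. CDC20 is at chr1:43358731-43358954 on the plus strand, UBE2S at chr19:55407789-55408038 on the minus strand, PTTG1 at chr5:160421605-160421821 on the plus strand and CDC23 at chr5:138213344-138213573 on the minus strand. Capitals mark matches, on either strand, to the cell cycle genes homology region (CHR, searched as TTTGAA or TTTAAA), the CCAAT box (searched as CCAAT) and an E2F site (searched as TTTCGCGC, TTTGGCGC or TTTCCCGC), letters known from promoters of cell cycle genes.
CDC20: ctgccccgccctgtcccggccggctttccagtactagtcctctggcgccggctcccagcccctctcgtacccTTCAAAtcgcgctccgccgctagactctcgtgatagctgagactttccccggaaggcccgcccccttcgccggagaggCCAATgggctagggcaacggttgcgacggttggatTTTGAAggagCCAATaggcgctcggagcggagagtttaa
UBE2S: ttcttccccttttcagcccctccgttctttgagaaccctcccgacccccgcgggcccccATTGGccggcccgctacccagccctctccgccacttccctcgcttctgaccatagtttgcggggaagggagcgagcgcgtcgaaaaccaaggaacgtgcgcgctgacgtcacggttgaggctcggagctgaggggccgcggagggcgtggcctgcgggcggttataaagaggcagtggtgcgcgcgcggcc
PTTG1: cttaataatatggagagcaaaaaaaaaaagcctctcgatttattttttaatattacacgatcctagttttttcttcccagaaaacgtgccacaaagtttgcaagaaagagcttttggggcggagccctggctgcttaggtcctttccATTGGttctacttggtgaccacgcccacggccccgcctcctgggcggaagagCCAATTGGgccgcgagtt
CDC23: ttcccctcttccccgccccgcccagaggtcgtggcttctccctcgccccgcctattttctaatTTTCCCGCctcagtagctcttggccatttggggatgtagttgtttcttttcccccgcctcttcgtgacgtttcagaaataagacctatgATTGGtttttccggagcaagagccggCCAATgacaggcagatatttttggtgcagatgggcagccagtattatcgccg

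CDC20 held a CHR match whose first base lay at -65 from the start, between CCAAT boxes at -100 and -55, and a further CHR match on the opposite strand at -178. PTTG1 held a CCAAT box at -103 and 2 overlapping ones at -51 and -48, and a CHR match at -29 that lies inside the gene row and is not printed. These positions are from the upstream of 2 RefSeq starts of PTTG1, and from the other, at 160421910, the same matches lie at -158, -106, -103 and -84. Bases shortly after the upstream start were not found in a GENCODE 29 transcript of PTTG1, while those after the other start were. UBE2S held 1 CCAAT box at -191 and no CHR match in these letters. CDC23 held CCAAT boxes at -98, -72 and, inside the gene row, -17, with an E2F match at -187. RefSeq windows of 300 bases were at hand for 9 of the 10 genes (12 windows, UBE2C not among them), of which 6 genes held a CHR match, 7 a CCAAT box and 2, CDC23 and CDC16, an E2F match. The CHR matches of CDC27 and ANAPC1 lay after the start, at 41 and 38. FBXO5 held its CHR matches and CCAAT boxes only before the downstream of its RefSeq starts, at 152983041, inside the gene row. The window of its upstream start, at 152983579, held no match. Over all 35116 windows of that length the shares were 24%, 34.6% and 2.74%, counted per window and not per gene. A match describes letters only.

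**Figure D1:**
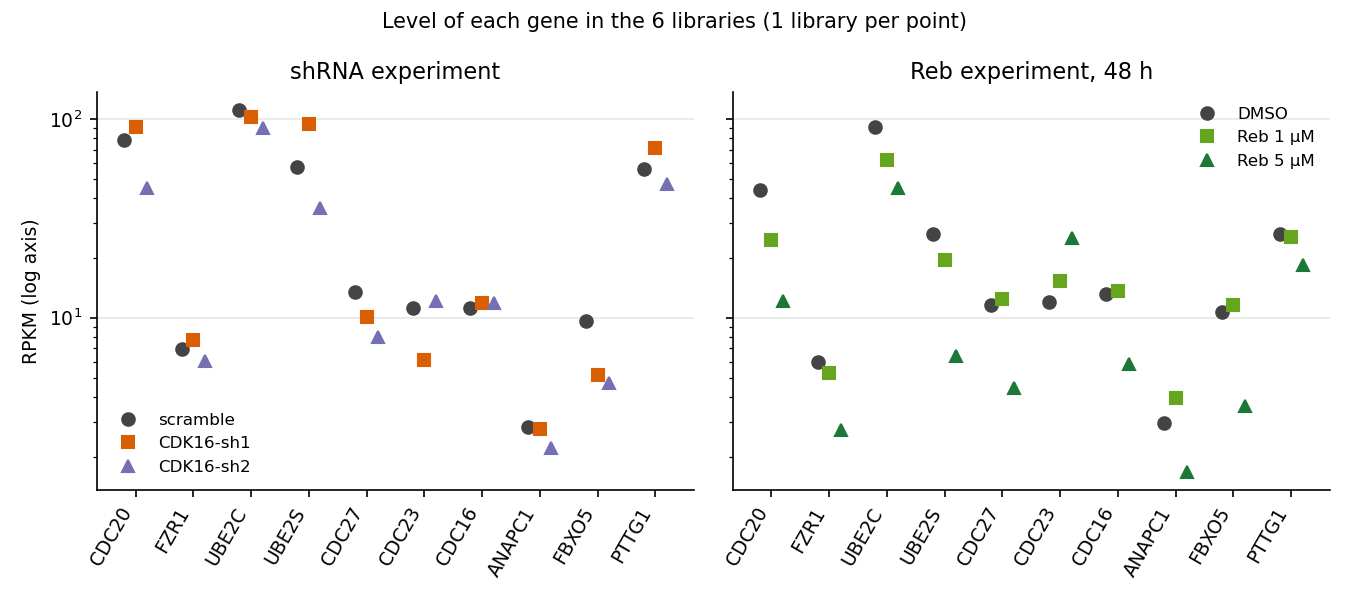
Level of the 10 genes in RPKM (log axis) in the 3 libraries of the shRNA experiment (left) and of the Reb experiment (right), with 1 point per library. UBE2C is the highest and ANAPC1 the lowest of the 10 in every library, and CDC23 moves from 12.0 RPKM with DMSO to 25.1 RPKM with 5 μM Reb while the other 9 are below their DMSO level in RPKM. RPKM is scaled by library total, and in RPKM the median log2 fold change of all genes at 5 μM was -0.71. With TMM scaling PTTG1 was above DMSO there, at 0.17, and 8 of the 10 were below it, where 51.7% of all genes were.

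CDC20 (chromosome 1, 43358955 to 43363203) was the coactivator with the larger differences. It had 4110 counts with the scramble shRNA, 5898 with CDK16-sh1 and 2523 with CDK16-sh2, or 78.1, 90.6 and 45.0 RPKM. The log2 fold change was 0.24 (0.19 to 0.30) with CDK16-sh1 and -0.60 (-0.67 to -0.53) with CDK16-sh2, on opposite sides of the control, but -0.21 and -0.72, both below it, with trends on GC content and length removed. In the Reb experiment CDC20 had 4518 counts with DMSO, 2470 with 1 μM and 933 with 5 μM, or 44.1, 24.6 and 12.2 RPKM. Its log2 fold change was -0.89 (-0.97 to -0.82) with 1 μM, the lowest of the 10 genes there, and -1.17 (-1.27 to -1.07) with 5 μM. From 1 μM to 5 μM the difference was -0.27 (-0.38 to -0.16), a small step that depends on the scaling: with library totals CDC20 stood at -0.84 and -1.86 at the 2 doses.

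FZR1 (chromosome 19, 3506273 to 3538330), the G1 coactivator, had 1037, 1437 and 967 counts with the scramble shRNA, CDK16-sh1 and CDK16-sh2, or 6.92, 7.75 and 6.06 RPKM. Its log2 fold changes were 0.19 (0.08 to 0.31) with CDK16-sh1 and 0.01 with CDK16-sh2, where the interval of -0.12 to 0.13 spans no difference. Across DMSO, 1 μM and 5 μM Reb the counts were 1752, 1504 and 594 counts, or 6.00, 5.25 and 2.72 RPKM, giving -0.24 (-0.34 to -0.14) and -0.45 (-0.59 to -0.32). FZR1 was therefore lower than DMSO by less than CDC20 at both doses. With trends on GC content and length removed its direction turned to -0.19 with CDK16-sh1 and to 0.37 at 5 μM, and it stood at -0.04 at 1 μM. MFSD12, annotated on the opposite strand, shares 70 bases with FZR1. It had 2011, 4403 and 2289 counts in the shRNA libraries and 4131, 4452 and 2355 in the Reb libraries.

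A ratio of 2 genes in the same library does not depend on how libraries are scaled, though it keeps any trend on GC content or length between the genes, and these pairs were picked after the values had been seen. In RPKM, CDC20 stood at 11.3 times FZR1 with the scramble shRNA, 11.7 times with CDK16-sh1 and 7.43 times with CDK16-sh2. In the Reb experiment it stood, in the order DMSO, 1 μM and 5 μM, at 7.34, 4.68 and 4.47 times FZR1. The balance of the coactivator RNAs was thus shifted toward FZR1 in 3 of the 4 treated libraries, by -0.60 (-0.75 to -0.46), -0.65 (-0.77 to -0.53) and -0.72 (-0.88 to -0.55) on the log2 scale, and not beyond counting error with CDK16-sh1, at 0.05 (-0.08 to 0.18).

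The E2 enzymes of the complex did not move together. UBE2C (chromosome 20, 45812576 to 45816957), which starts ubiquitin chains, had 3677, 4175 and 3180 counts with the scramble shRNA, CDK16-sh1 and CDK16-sh2, or 111, 102 and 89.9 RPKM. The differences were small, -0.09 (-0.16 to -0.03) and -0.10 (-0.17 to -0.03), and were -0.36 and -0.22 with trends on GC content and length removed. In the Reb experiment UBE2C had, in the same order of doses, 5853, 3956 and 2171 counts, or 90.5, 62.3 and 44.8 RPKM, giving -0.59 (-0.65 to -0.53) and -0.32 (-0.39 to -0.25). The TMM-scaled level was lower at 1 μM than at 5 μM, although the RPKM was lowest at 5 μM.

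UBE2S (chromosome 19, 55399745 to 55407777), which extends the chains, had 4112 counts with the scramble shRNA, 8358 with CDK16-sh1 and 2741 with CDK16-sh2, or 57.1, 93.8 and 35.8 RPKM. It was the member farthest above the control with CDK16-sh1, at 0.75 (0.69 to 0.80), and it was lower with CDK16-sh2, at -0.48 (-0.55 to -0.41). Its processed copies UBE2SP1 and UBE2SP2 had 53, 185 and 39 counts and 4, 13 and 2 counts, and reads that UBE2S shares with them were not measured. The DMSO, 1 μM and 5 μM libraries held 3689, 2693 and 674 UBE2S counts, or 26.3, 19.6 and 6.42 RPKM. The differences were -0.48 (-0.55 to -0.41) at 1 μM and -1.34 (-1.47 to -1.23) at 5 μM, the lowest of the 10 genes there. UBE2S stood at 0.516, 0.923 and 0.398 times UBE2C in the shRNA libraries and at 0.291, 0.314 and 0.143 times UBE2C in the Reb libraries, a change of -1.02 (-1.16 to -0.88) on the log2 scale at 5 μM. With trends on GC content and length removed the pair lay closer there, with UBE2S at -1.04 and UBE2C at -0.71. UBE2S was then no longer the lowest of the 10, as FBXO5 stood at -1.51 and CDC27 at -1.21.

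FBXO5 (EMI1; chromosome 6, 152970519 to 152983579), the inhibitor of the complex in interphase, was lower with both hairpins by nearly the same amount. It had 957 counts with the scramble shRNA, 629 with CDK16-sh1 and 494 with CDK16-sh2, or 9.66, 5.14 and 4.69 RPKM. The log2 fold changes were -0.88 (-1.03 to -0.74) and -0.84 (-1.01 to -0.69), and the hairpins differed from each other by 0.03 (-0.14 to 0.21). Removing trends on GC content and length gave -0.46 with CDK16-sh1 and -0.72 with CDK16-sh2. The Reb experiment gave 2069, 2193 and 517 counts with DMSO, 1 μM and 5 μM, or 10.7, 11.6 and 3.58 RPKM. No difference beyond counting error was seen at 1 μM (0.06, -0.03 to 0.15), and FBXO5 was lower at 5 μM, at -0.89 (-1.03 to -0.75), short of 2-fold. With GC content and length trends removed the values were -0.15 and -1.51, the latter past 2-fold. Against FZR1, whose complex it inhibits, FBXO5 stood at 1.40, 0.663 and 0.773 times in the shRNA libraries and at 1.79, 2.21 and 1.32 times in the Reb libraries. These ratios keep the trend on GC content, which is lowest in FBXO5 (34.2%) and highest in FZR1 (64.0%) among the 10. With GC content and length trends removed, FZR1 stood at -0.19 and -0.06 with CDK16-sh1 and CDK16-sh2 and at -0.04 and 0.37 with 1 μM and 5 μM Reb. At 1 μM FBXO5 was then lower than FZR1. The paralog of FBXO5, FBXO43 (EMI2), the inhibitor known from oocytes, was weakly detected, with 160, 102 and 71 counts in the shRNA libraries and 554, 477 and 28 in the Reb libraries. A gene annotated on the opposite strand, RP1-101K10.6, shares 157 bases with FBXO5.

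PTTG1 (securin; chromosome 5, 160421822 to 160428744), the inhibitor of separase and an APC/C substrate, had 2911, 4588 and 2599 counts with the scramble shRNA, CDK16-sh1 and CDK16-sh2, or 56.0, 71.3 and 47.0 RPKM. It was higher with CDK16-sh1, at 0.38 (0.31 to 0.45), and within counting error with CDK16-sh2, at -0.06 (-0.13 to 0.02). With DMSO, 1 μM and 5 μM Reb it had 2672, 2526 and 1398 counts, or 26.4, 25.4 and 18.4 RPKM. The difference was -0.10 (-0.18 to -0.03) at 1 μM and 0.17 (0.08 to 0.27) at 5 μM, and the latter turned to -0.52 with scaling by library totals, where the median of all genes was -0.75. Relative to that median it was 0.24 higher with either scaling, a standing that was gone with trends on GC content and length removed, where PTTG1 was at 0.000319 and the median at -0.0119. The value with CDK16-sh1 was then 0.18.

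ESPL1, the separase that securin holds inactive, had 1961, 1083 and 54 counts with DMSO, 1 μM and 5 μM Reb, a log2 fold change of -4.05 (-4.49 to -3.68) at 5 μM. Securin RNA therefore stood at 6.02 times separase RNA (both in RPKM) with DMSO, 10.3 times with 1 μM and 114 times with 5 μM. This change of ratio, 4.25 (3.85 to 4.65) on the log2 scale, was the largest of the 7 pairs computed. In the shRNA libraries the ratio was 12.1, 16.5 and 14.8.

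**Figure D2:**
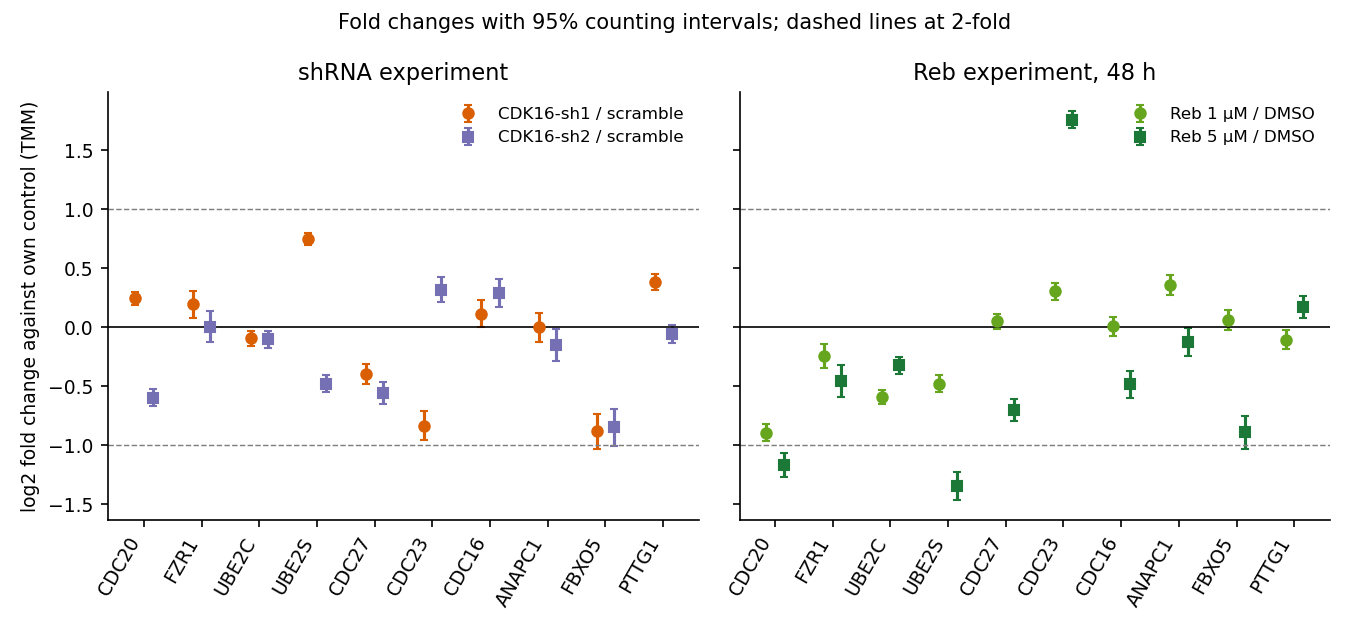
Log2 fold change (TMM scaling) of each gene against its own control, with 95% counting intervals as bars; hairpins on the left, Reb doses on the right, dashed lines at 2-fold. CDC20, UBE2S and CDC23 lie on opposite sides of 0 for the 2 hairpins (CDC20 no longer with GC content and length trends removed), FBXO5 lies near -0.88 and -0.84 for both, and CDC23 alone is above the upper dashed line at 5 μM.

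The scaffold and its arms are built from subunits that cannot replace each other, and their RNAs took separate courses. CDC27 (APC3; chromosome 17, 47117703 to 47189422), which docks the coactivators, had 2382, 2189 and 1502 counts with the scramble shRNA, CDK16-sh1 and CDK16-sh2, or 13.5, 10.0 and 8.0 RPKM. Both hairpins were below the control, at -0.40 (-0.48 to -0.31) and -0.56 (-0.65 to -0.46). In the DMSO, 1 μM and 5 μM libraries CDC27 had 3992, 4199 and 1140 counts, or 11.6, 12.5 and 4.44 RPKM, with no difference beyond counting error at 1 μM (0.05, -0.01 to 0.11) and -0.70 (-0.80 to -0.60) at 5 μM. CDC27 and FBXO5 were thus the members below the control with each hairpin and with 5 μM Reb and within counting error at 1 μM. Removing trends on GC content and length turned CDC27 to 0.13 with CDK16-sh1 and put it at -0.33 with CDK16-sh2, -0.11 at 1 μM and -1.21 at 5 μM. RP5-867C24.5, annotated on the opposite strand, shares 126 bases with CDC27.

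CDC23 (APC8; chromosome 5, 138187648 to 138213343), another subunit of the tetratricopeptide repeat arm, stood apart from the other 9 genes. It had 1337 counts with the scramble shRNA, 908 with CDK16-sh1 and 1546 with CDK16-sh2, or 11.2, 6.15 and 12.2 RPKM, giving -0.83 (-0.96 to -0.71) and 0.32 (0.21 to 0.42). With DMSO, 1 μM and 5 μM Reb it had 2784, 3493 and 4371 counts, or 12.0, 15.3 and 25.1 RPKM. The raw count itself was higher at 5 μM although that library was the shallowest of the 3. The log2 fold changes were 0.30 (0.23 to 0.38) and 1.76 (1.69 to 1.83), a 3.38-fold level at 5 μM, and still 1.07 with library totals and 1.61 with trends on GC content and length removed. KIF20A, a mitotic kinesin on the opposite strand, shares the last 68 bases of the CDC23 row (138187648 to 138187715) and moved the other way, with 8370, 6306 and 904 counts in the Reb libraries.

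CDC16 (APC6; chromosome 13, 114234887 to 114272723) had 1121, 1472 and 1272 counts in the shRNA libraries, or 11.1, 11.8 and 11.9 RPKM, and was slightly above the control with CDK16-sh2, at 0.29 (0.17 to 0.41). The Reb libraries had 2580, 2637 and 856 counts of CDC16, or 13.2, 13.7 and 5.83 RPKM, giving 0.01 (-0.07 to 0.09) and -0.48 (-0.60 to -0.37). ANAPC1 (chromosome 2, 111766271 to 111884690), the largest scaffold subunit, had 967, 1170 and 811 counts in the shRNA libraries, or 2.81, 2.75 and 2.21 RPKM, with -0.15 (-0.28 to -0.01) for CDK16-sh2. It had 1984, 2581 and 844 counts with DMSO, 1 μM and 5 μM Reb, or 2.96, 3.92 and 1.68 RPKM, or log2 fold changes of 0.36 (0.27 to 0.44) and -0.12 (-0.24 to -0.01). ANAPC1 was thus the member highest above DMSO at 1 μM and near DMSO at 5 μM.

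The subunits sit in the complex in fixed numbers, so their ratios to CDC27 describe how evenly the RNAs moved. CDC23 stood at 0.829, 0.613 and 1.52 times CDC27 (in RPKM) in the shRNA libraries, and at 1.03, 1.23 and 5.67 times CDC27 with DMSO, 1 μM and 5 μM Reb. The change at 5 μM was 2.46 (2.34 to 2.58) on the log2 scale. CDC16 stood at 0.823, 1.18 and 1.48 times CDC27 in the shRNA libraries and at 1.13, 1.10 and 1.31 times in the Reb libraries, and ANAPC1 at 0.208, 0.274 and 0.277 times and at 0.255, 0.315 and 0.379 times. The ratio of ANAPC1 to CDC27 was above its control in all 4 comparisons, by 0.40 (0.25 to 0.55), 0.41 (0.25 to 0.58), 0.31 (0.20 to 0.41) and 0.57 (0.42 to 0.73) on the log2 scale.

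**Figure D3:**
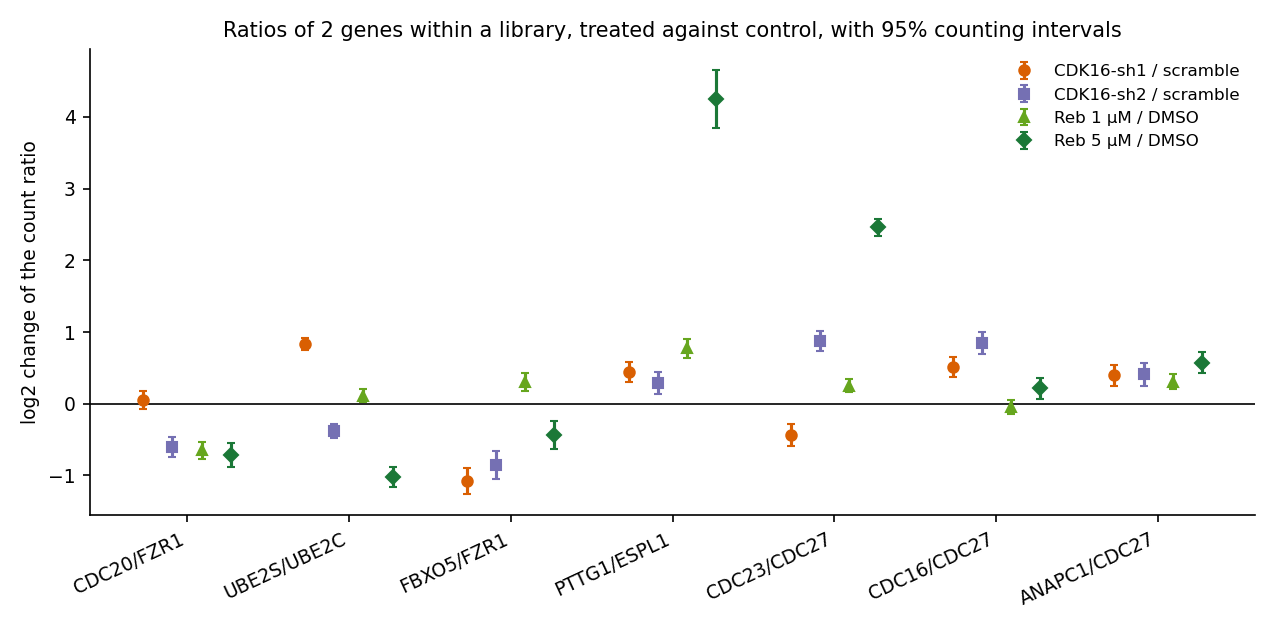
Log2 change, treated against control, of the ratio of counts of 2 genes within a library, with 95% counting intervals as bars. The pairs PTTG1/ESPL1 (4.25) and CDC23/CDC27 (2.46) stand highest at 5 μM Reb, UBE2S/UBE2C lies above 0 with CDK16-sh1 and below it with CDK16-sh2, and CDC20/FZR1 lies near 0 with CDK16-sh1 and below 0 in the other comparisons.

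The other 10 core subunits of the complex showed the same lack of a common course. With CDK16-sh1 1 was at least 2-fold lower and none higher, where 6.86% and 4.33% of all genes were. With CDK16-sh2 none was lower and 1 higher, where 7.62% and 2.2% of all genes were. With 1 μM Reb none was in either direction, where 1.92% and 1.28% of all genes were. With 5 μM Reb 2 were lower and 1 higher, shares below the 27.2% and 23.6% of all genes. The median log2 fold changes of these 10 subunits were 0.12, -0.03, 0.04 and -0.04. CDC26, a small subunit that stabilises CDC16, made both calls in the shRNA experiment, with 1545 counts with the scramble shRNA, 518 with CDK16-sh1 and 3204 with CDK16-sh2. Its log2 fold changes were -1.85 (-2.0 to -1.71) and 1.16 (1.07 to 1.25), a gap of 3.01 between hairpins against the same gene.

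ANAPC7, the subunit at the end of the repeat arm, had 3784, 3789 and 215 counts with DMSO, 1 μM and 5 μM Reb, a log2 fold change of -3.02 (-3.23 to -2.83) at 5 μM with none beyond counting error at 1 μM (-0.02, -0.09 to 0.04). ANAPC2, the cullin of the catalytic core, had 1172, 1130 and 212 counts and stood at -1.35 (-1.58 to -1.15) at 5 μM. Its partner in the core, the RING protein ANAPC11, had 2065, 1775 and 1249 counts and stood at 0.38 (0.28 to 0.48) at 5 μM, a direction that turned to -0.31 with library totals. ANAPC15, which promotes turnover of CDC20 in the checkpoint complex, had 4060, 4240 and 4028 counts and stood at 1.10 (1.03 to 1.16), or 0.41 with library totals. ANAPC10, which helps bind substrates, had 996, 1037 and 922 counts and stood at 1.00 (0.87 to 1.13), just under 2-fold. The remaining ANAPC4, ANAPC5, ANAPC13, ANAPC16 and CDC26 lay within 2-fold of DMSO at both doses, but with library totals ANAPC13 stood at -1.30 and CDC26 at -1.12 at 5 μM, and ANAPC10 at 0.31. At 5 μM Reb, CDC23 and ANAPC15 were thus more than 2-fold above DMSO while ANAPC7 and ANAPC2 were more than 2-fold below it, with ANAPC15 inside 2-fold when scaled by library totals and ANAPC2 inside it, at -0.56, with trends on GC content and length removed.

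The genes upstream and downstream of the complex were taken as 2 further lists. Of 8 genes of the mitotic checkpoint, which holds CDC20 in check, none was 2-fold lower with CDK16-sh1 or 1 μM Reb. With CDK16-sh2 1 was, with 5 μM Reb 4 were, and none was 2-fold higher. In the order CDK16-sh1, CDK16-sh2, 1 μM and 5 μM Reb, 6.86%, 7.62%, 1.92% and 27.2% of all genes were lower. The shares higher were 4.33%, 2.2%, 1.28% and 23.6%. The medians of the 8 genes were -0.62, -0.14, -0.16 and -1.07. Not all were lower: BUB3 stood at 0.66 with 5 μM Reb and MAD2L1BP at 0.61 with CDK16-sh2, both named after their values were seen. Of these, TRIP13, the ATPase that takes the checkpoint complex apart, stood at -0.63 and -1.65 with CDK16-sh1 and CDK16-sh2, the kinase BUB1 at -0.62 and -0.70 and the kinase TTK at -0.97 and -0.46. With 1 μM and 5 μM Reb, BUB1 stood at -0.22 and -2.06, MAD2L1, which binds CDC20, at -0.23 and -1.42, and TTK at -0.23 and -0.83.

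Of 25 known APC/C substrates, 3 were at least 2-fold lower with CDK16-sh1 and 1 with CDK16-sh2. With 1 μM Reb 1 was, with 5 μM Reb 18 were, and none was 2-fold higher in any comparison. Among all genes 6.86%, 7.62%, 1.92% and 27.2% were lower in the same order, and 4.33%, 2.2%, 1.28% and 23.6% higher. The medians of the substrates were -0.49, -0.34, -0.25 and -1.92. Those of the 10 genes were 0.06, -0.12, -0.05 and -0.47, and those of all genes lay between -0.07 and 0.02. The replication licensing factor CDC6 stood at -0.74 and -0.99 with CDK16-sh1 and CDK16-sh2, the cytokinesis protein ANLN at -1.5 and -0.56 and the kinesin KIF18A at -0.58 and -0.66. With 1 μM and 5 μM Reb the mitotic kinase AURKB stood at -1.01 and -4.54, ESPL1 at -0.88 and -4.05 and CDCA3, an adaptor in mitotic entry, at -0.77 and -3.05. Not all were lower: SKP2 stood at 0.85 and 0.73 with 1 μM and 5 μM Reb. TK1 stood at 0.73 with CDK16-sh1 and 0.42 with 5 μM Reb, and both were named after their values were seen. In the order of the 4 comparisons, 20, 22, 20 and 22 of the 25 were below their control. The shares of all genes below it were 50.1%, 48.6%, 49.8% and 51.7%. The 10 genes were thus closer to their controls than the 25 listed substrates in the median. The 10 mix the inhibitor FBXO5, the core subunits CDC27, CDC23, CDC16 and ANAPC1, and PTTG1, itself a substrate. PTTG1 is not the only one of the 10 controlled by degradation, so the 2 lists do not separate the complex from its substrates. This difference of lists that share libraries was not tested.

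**Figure D4:**
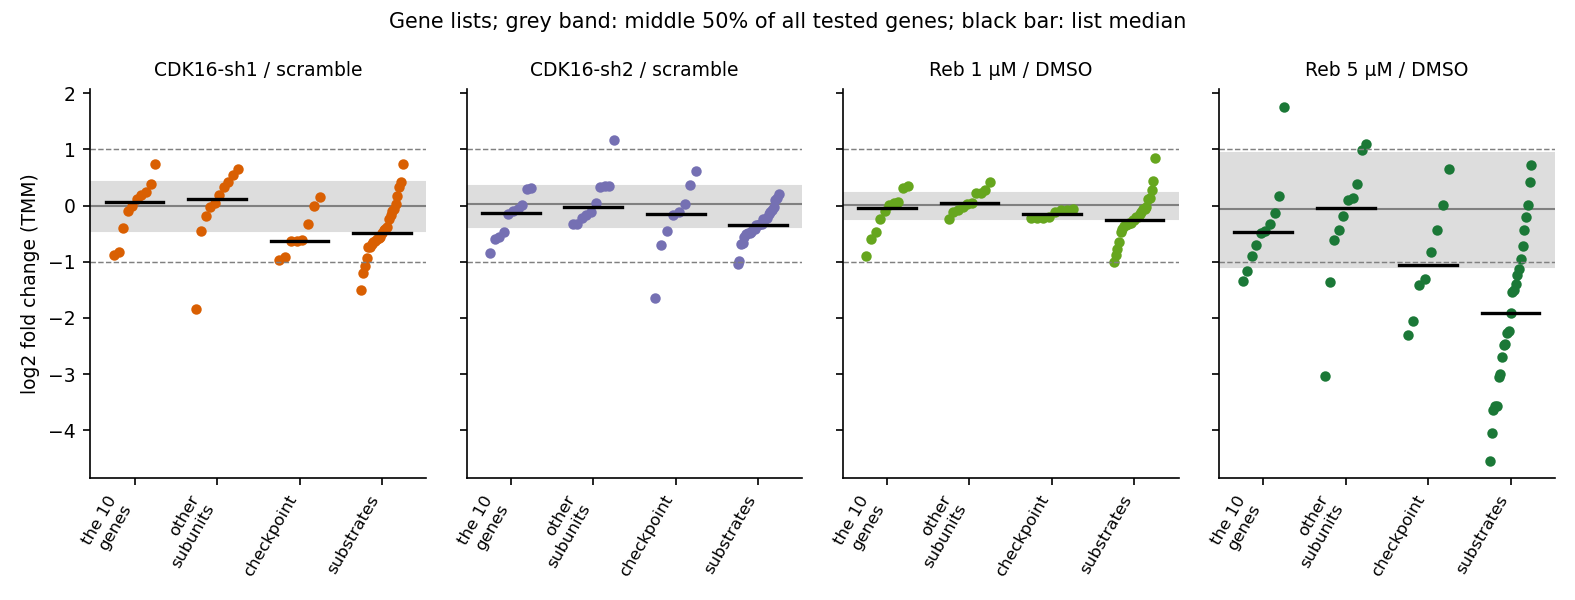
Log2 fold change (TMM scaling) of the genes of 4 lists in the 4 comparisons, 1 point per gene; the black bar is the list's median, the grey line and band the median and middle 50% of all tested genes, the dashed lines 2-fold. At 5 μM Reb the median is -0.47 for the 10 genes, -0.04 for the other subunits, -1.07 for the checkpoint genes and -1.92 for the substrates.

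The genes whose 4 log2 fold changes were most like those of CDC20, among the 10554 genes that averaged 5 CPM or more in each experiment, were SNAPIN, PCBP2-OT1 and RAB43, at Euclidean distances of 0.329, 0.367 and 0.382. No mitotic gene was among these 3. SNAPIN, for example, stood at 0.13, -0.49, -0.74 and -0.92 in the order CDK16-sh1, CDK16-sh2, 1 μM and 5 μM Reb. The distances keep trends on GC content and length and were not computed with those removed, where CDC20 stood at -0.21 with CDK16-sh1. A parting of CDC20 from mitotic genes was not tested.

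The GC content of a gene moved with these differences. Across genes with a known GC content, the log2 fold change correlated with it at r = 0.478 with CDK16-sh1, 0.131 with CDK16-sh2, -0.305 with 1 μM and -0.217 with 5 μM Reb, genes not being independent replicates. The 3 members of highest GC content, FZR1 (64.0%), CDC20 (57.9%) and UBE2S (55.7%), were all above the scramble control with CDK16-sh1, and the 3 of lowest, FBXO5 (34.2%), CDC27 (36.6%) and CDC23 (43.2%), were all below it. With the trends on GC content and length removed, CDC20, FZR1 and CDC27 changed sides with CDK16-sh1, to -0.21, -0.19 and 0.13. UBE2S stayed above the control, at 0.40, and CDC23 below it, at -0.59. At 5 μM Reb the same step moved ANAPC1 to 0.02.

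**Figure D5:**
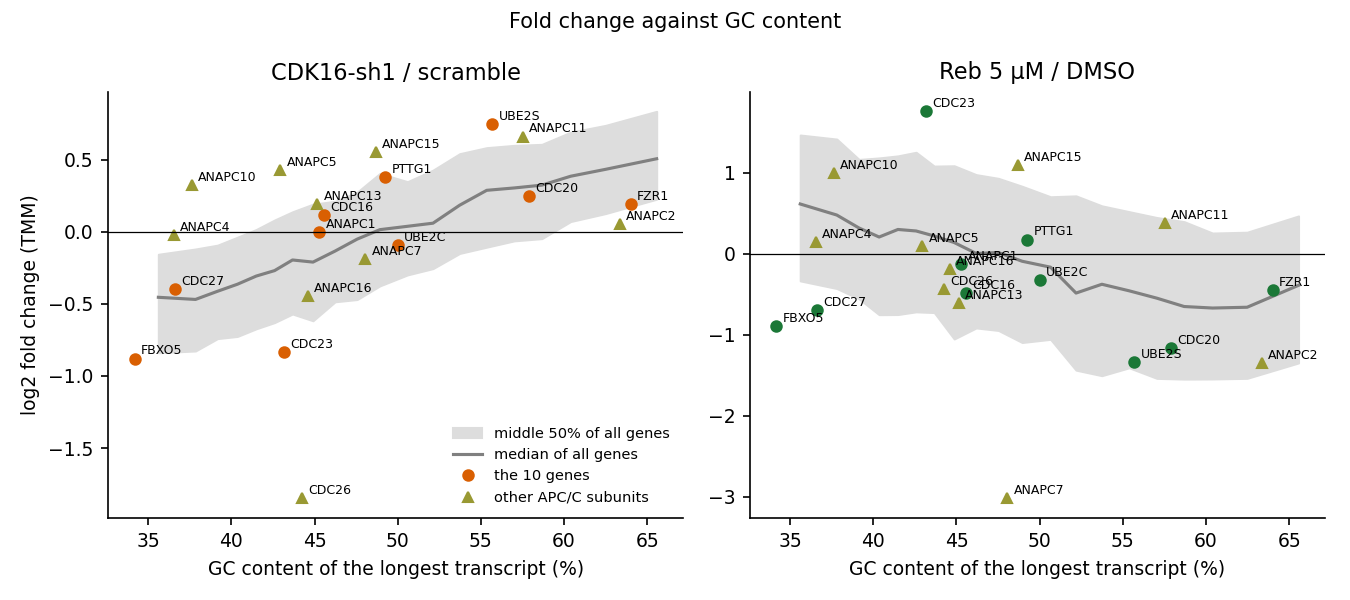
Log2 fold change (TMM scaling) against the GC content (%) of the longest transcript for the 10 genes (circles) and the other APC/C subunits (triangles), with the median and middle 50% of all genes in bins of GC content (line and band). With CDK16-sh1 the line climbs with GC content and FBXO5, CDC27 and CDC23 lie on the left below 0. With 5 μM Reb it falls, and CDC23 lies above the band and ANAPC7 below it.

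The main test across all genes took both treated libraries of an experiment as 1 group against the control, so that its spread is the difference between hairpins or doses. A call in this main test needed an adjusted p of at most 0.05 and a difference of at least 2-fold. The fit with dose as a linear term, given last, asked for the adjusted p alone. Its spread is the departure of 3 single libraries from a line. By the quasi-likelihood test of edgeR, with p adjusted by Benjamini and Hochberg's method, none of the 10 genes was called in either experiment, where 0% of all genes (shRNA, 382 of 15295 at an unadjusted p under 0.05) and 0.0767% (Reb, 12 of 15655) were. The lowest unadjusted p of a member was 0.101, for FBXO5 with the hairpins (log2 fold change -0.86, adjusted p = 1.00 by edgeR). With dose as a linear term in edgeR, 24.5% of genes were called, and of the 10 only CDC23 was, with a slope of 0.70 on the log2 scale per unit of log2(dose in μM + 1) and an adjusted p of 0.0173. UBE2S followed with -0.52 and an adjusted p of 0.0863 and CDC20 with -0.43 and 0.143 in the same edgeR fit.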

How the data were processed

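Stranded mRNA libraries of MDA-MB-231 cells were sequenced on an Illumina HiSeq X 10. The deposited count tables hold the authors' whole-number read count per gene symbol and library, not normalized, and the deposited RPKM tables hold the authors' counts divided by gene length and library total, which matched values recomputed from the counts within 4.94e-06. The submitters' processing notes name Trimmomatic, featureCounts, Subread 1.5.1 and GRCh38, and the aligner and the strand setting of the counting are not given in the sources used here. A spreadsheet had rewritten 28 and 27 symbols as dates, none of them named in the text.

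TMM-scaled CPM gave the fold changes, with 2 as the prior count, for the 15295 and 15655 genes that averaged 1 CPM or more (R 4.3.3, edgeR 4.0.16, DESeq2 1.42.0). The 95% intervals are exact Clopper-Pearson intervals of the 2 counts compared and cover counting error only. The fold threshold of 2 and the adjusted p threshold of 0.05 are those of the study's methods. The edgeR fits were tested on simulated counts. A called gene in them rests on libraries that are not replicates, since no label gives separate cultures of a condition. GC content was known for 84.6% and 84.3% of the tested genes, from GENCODE 29 transcripts. Coordinates are those of the deposited tables.

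The 10 genes and the 3 further lists (other subunits, checkpoint genes, substrates) were chosen with earlier results of these data known, and the gene pairs after their values were seen. All 10 genes and the other subunits were to be named. From each remaining list up to 3 genes per experiment were, those with a mean of at least 5 CPM and the same sign in both treated libraries whose smaller change was largest. Alternatives were other scalings, RPKM with 0.1 added before the log, no filter on low counts, a prior count of 0.5, a threshold of 1.5-fold, the removal of loess trends on GC content and length, and other pooled tests.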

Additional observations from a re-analysis of the deposited data

Results flagged for a closer look

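CDC20, UBE2S and CDC23 stood on opposite sides of the scramble control with the 2 hairpins, which target the same gene. From CDK16-sh1 to CDK16-sh2 the log2 difference was -0.84 for CDC20, -1.22 for UBE2S and 1.15 for CDC23. PTTG1 and ANAPC1 stood on opposite sides of DMSO at the 2 doses of Reb, with a log2 difference from 1 μM to 5 μM of 0.28 for PTTG1 and -0.48 for ANAPC1. With 1 library per condition none of these differences was tested, and their intervals cover counting error only. With the trends on GC content and length removed, CDC20 was on the lower side of the scramble control with CDK16-sh1 as well, at -0.21, and ANAPC1 was above DMSO at both doses, at 0.32 and 0.02. With library totals PTTG1 was below DMSO at both doses, at -0.05 and -0.52.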

How the results depend on the processing

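At 5 μM Reb the size of the differences depends on the scaling: the median of the 10 genes was -1.16 with library totals, -1.01 with totals without mitochondrial transcripts, -1.14 with RPKM, -0.67 without the filter on low counts and -0.63 with GC and length trends removed, and 7, 5, 7, 3 and 4 of the 10 were then at least 2-fold lower. The median of all genes was then -0.75, -0.60, -0.71, -0.27 and -0.01 in the same order. Library totals moved that median by -0.68, and the 10 genes kept their distances from it. With CDK16-sh2 the median of the 10 genes was -0.32, -0.24 and -0.31 under the first 3 of these settings. There 1 gene, FBXO5, was 2-fold lower with totals and with RPKM. At a 1.5-fold threshold 2 of the 10 were lower and 1 higher with CDK16-sh1 and 2 were lower with CDK16-sh2. At that threshold 2 were lower with 1 μM and 4 with 5 μM Reb. The share of all genes was not computed under these settings or at 1.5-fold, so these counts cannot be read as particular to the 10 genes. PTTG1 at 5 μM turned to -0.52, -0.37, -0.51 and -0.0295 with totals, totals without mitochondrial transcripts, RPKM and no filter. With GC and length trends removed, the sign turned with CDK16-sh1 for CDC20 (-0.21), FZR1 (-0.19) and CDC27 (0.13), with CDK16-sh2 for ANAPC1 (0.0759) and at 5 μM Reb for FZR1 (0.37) and ANAPC1 (0.0187). The 12 genes that edgeR called for Reb with both doses as 1 group became 3 without the filter, 0 with totals (91 at an unadjusted p under 0.05, and 17 called by DESeq2) and 3832 with dose as a linear term. No paired analysis was possible because each condition has 1 library.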
